A study of Mus musculus with 6 samples.

Results

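Epithelial junction and identity genes were examined in the uterus of female mice on postnatal day 21, around weaning. The set, a list of gene names drawn up with earlier results of these data known, holds 40 genes, all of which are listed in the deposited tables of 20637 genes. It comprises 16 tight junction genes, 7 desmosome genes, 6 regulators of transcription or splicing, 3 adhesion molecules, 4 membrane proteases and their inhibitors, 2 genes of membrane trafficking, and 2 surface molecules, a receptor and a marker. Poly(A) RNA of the whole uterus was sequenced from 3 libraries labelled Nat10 f/f, in which the gene is flanked by recombination sites, and 3 labelled Nat10 d/d, in which it is deleted. Below these are called controls and deleted uteri, and single libraries f/f 1 to f/f 3 and d/d 1 to d/d 3. Nat10 encodes an enzyme that acetylates cytidines in RNA. The driver of the deletion, the cells it reaches, the strain, and whether each library comes from 1 animal are not given in the labels used here. The p-values therefore measure the spread between these libraries.

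A simple columnar epithelium lines the uterine lumen and forms the glands. Its cells are sealed near the lumen by tight junctions, whose strands of claudins set which ions and solutes pass between cells, while cytoplasmic plaque proteins tie the strands to actin. Cadherins of the adherens junctions and the desmosomes hold the cells together mechanically, and desmosomes anchor keratin filaments. Grainyhead-like and ETS-family transcription factors and the Esrp splicing factors maintain this epithelial programme. In the uterus these genes mark a minority compartment beside stroma, smooth muscle and vessels. In bulk tissue, fewer epithelial cells and less RNA per cell cannot be told apart.

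The deposited values, whose headers name no unit, were taken as FPKM, read abundance per gene length and library depth. On that reading, levels can be compared between genes. Nat10 itself was at 13.2, 16.4 and 9.95 FPKM in f/f 1 to f/f 3 and at 5.57, 5.23 and 5.53 FPKM in d/d 1 to d/d 3, so every library matched its label and the groups did not overlap (two-sided exact permutation p = 0.1, the smallest that 3 against 3 allows). Relative depth, estimated from the lowest values, differed by at most 1.27 times between libraries, and absolute depth is unknown. Library d/d 2 stood apart: the summed value of 6 proliferation markers was 131 FPKM there, against 12.6 to 49.9 in controls and 12.1 and 6.54 in d/d 1 and d/d 3. Control f/f 1 stood apart in other lists: 4 fat markers summed to 51.0 FPKM there and to 0.979 to 9.88 elsewhere, and 5 blood markers to 5581 and to 709 to 2629. Without f/f 1, 4 members (10.5%) had an unadjusted limma p under 0.05, beside 2.84% of all genes tested. The keratins Krt8, Krt18 and Krt19, which are not in the set, were between 116 and 204 FPKM in every library. Markers of other epithelia were scarce: 7 stratified squamous markers summed to 2.83 to 8.58 FPKM with Krt6a at 0 in all libraries, 4 urothelial markers to 5.95 to 9.25, and the 4 oviduct markers found in the tables to 1.33 to 6.91. Krt5, a basal keratin, was at 2.79 FPKM in f/f 1 and at most 0.761 in the others. The part of these lists in the results was not tested.

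Levels of the 40 genes spanned a wide range. By control mean, the highest were Cldn3 at 213 ± 16.8 FPKM (SD, n = 3), Spint2 at 205 ± 5.96, Cldn10 at 72.2 ± 7.68, Epcam at 51.5 ± 5.02 and Tjp1 at 51.4 ± 0.687. Cldn3 and Spint2 overlapped among the control libraries, so their order is not resolved. Epcam, Tjp1, Cldn7 and Cdh1 also overlapped, so neither is which of them hold the places after Cldn10. At the other end, Grhl1 was at 0.542 ± 0.0692 FPKM and Pkp1, the plakophilin of stratified epithelia, at 0.197 ± 0.00804. These 2 genes fell below the filter for testing, 1 FPKM or more in 3 or more of the libraries, and the other 38 passed it. All 16 tight junction genes were tested, together with 6 of 7 desmosome genes and 5 of 6 regulators.

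**Figure D1:**
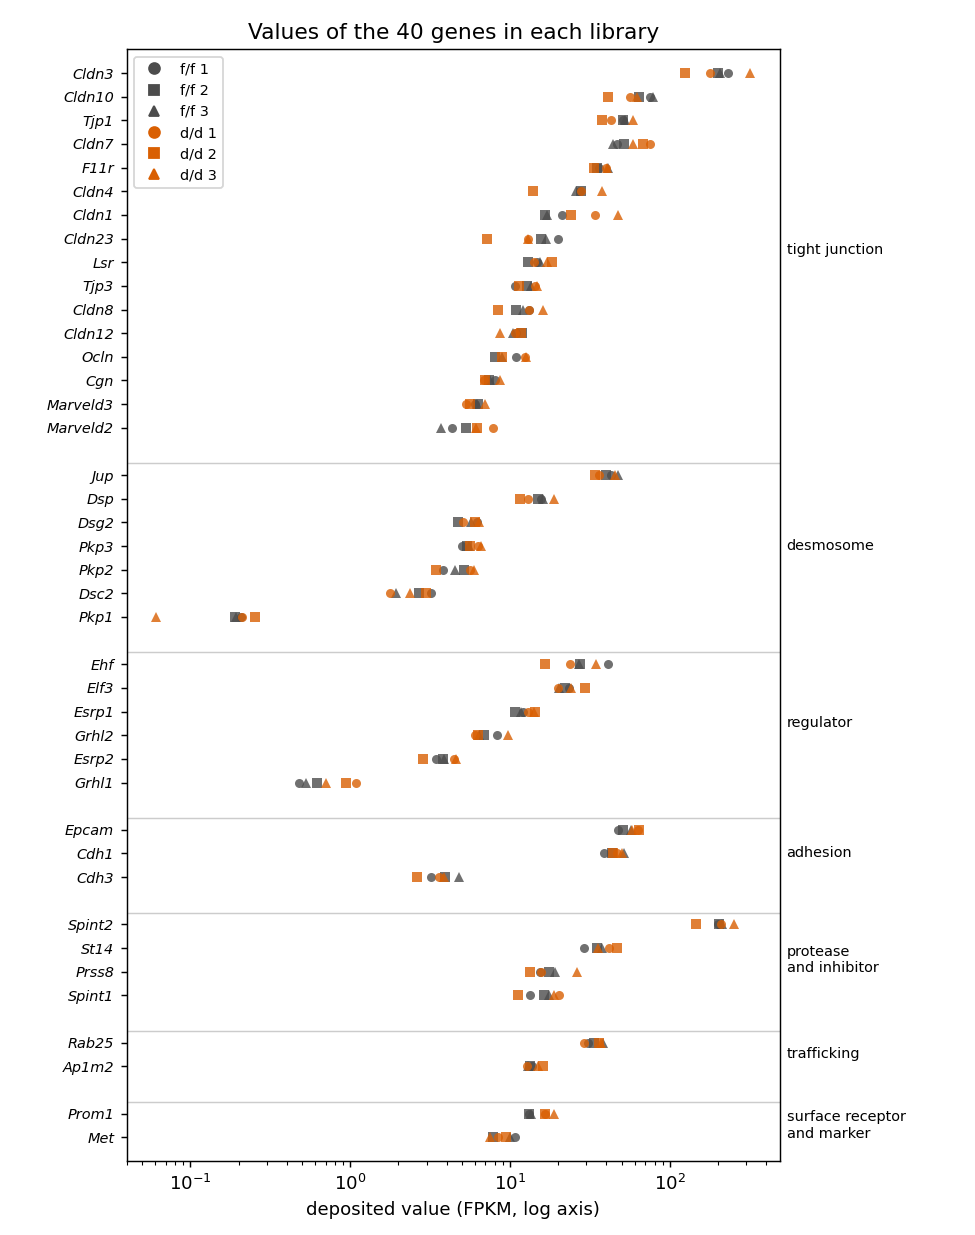
Deposited value of each of the 40 genes in each library, in FPKM on a log axis, with genes grouped by role and ordered by control mean within a group. Grey symbols are controls and orange symbols deleted uteri. Cldn3 and Spint2 lie above 100 FPKM in every library, and Pkp1 lies below 1 in every library.

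Between deleted and control uteri, no gene of the set passed an adjusted p of 0.05 (limma, Benjamini-Hochberg over the 12640 genes tested). None of the 12640 did so, a background of 0.0%, and 630 of them had an unadjusted p under 0.05. Nat10 itself, with a mean in deleted uteri at 41.4% of control, was not called either (log2 change -1.11, limma adjusted p = 0.669). The lack of calls therefore does not show a lack of change. At an unadjusted limma p under 0.05 there were 6 members of 38 (15.8%), beside 630 of all genes tested (4.98%). In 9 of 38 members (23.7%) every deleted library lay above or below every control, beside 10.7% of all genes tested. Of those 9, 7 were higher and 2 lower in deleted uteri. The median log2 change over the members was 0.03, as it was over all genes tested. A positive estimate was found for 22 members (57.9%), beside 56.6% of all genes tested, and a negative one for 16. Array quality weights, which gave d/d 2 a weight of 0.224 and d/d 1 a weight of 3.74, called 3 members (Cldn1, Cldn7 and Marveld2) beside 2.5% of all genes tested. Without d/d 3 the members at an unadjusted limma p under 0.05 numbered 13 (34.2%), beside 11.1% of all genes, and without d/d 2 they numbered 6 (15.8%), beside 13.7% of all genes.

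**Figure D2:**
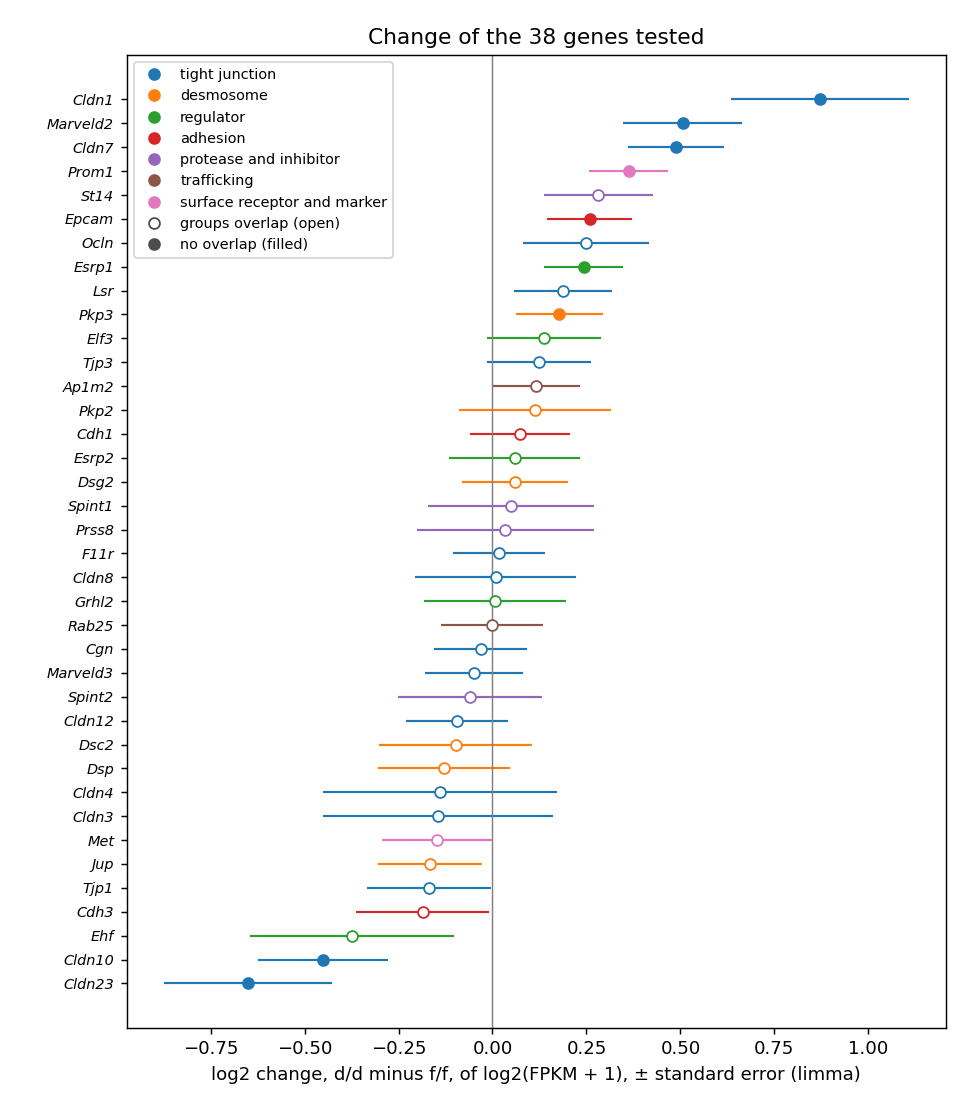
Fitted log2 change (deleted minus control, of log2(FPKM + 1)) with its standard error for the 38 genes tested, coloured by role. Filled symbols mark the 9 genes whose groups did not overlap; the estimates run from -0.65 for Cldn23 to 0.87 for Cldn1, and no gene passed the adjusted threshold.

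Promoters of the set were read from RefSeq (GRCm38.p6), in which 24 of the 40 genes matched by symbol, with 33 windows from 250 bases before to 50 after a transcription start. The letters CACCTG, an E-box form bound by the Zeb and Snail repressors of epithelial genes, were found on either strand in 16 of the 24 genes (66.7%), beside 20.8% of the tested genes with a window. Per window the shares were 57.6% and 17.9%. The Grainyhead-type letters AACCNNTT were found in 5 of 24 genes (20.8%), beside 1006 of 10039 tested genes, and the full palindrome AACCGGTT, a special case of the former, in 0 of 24, beside 0.329%. Not matched were Cldn8, Cldn23, Marveld3, Dsg2, Dsc2, Pkp1, Pkp2, Pkp3, Esrp1, Esrp2, Grhl2, Ehf, Cdh1, Cdh3, St14 and Prss8. A match describes letters only. The 250 bases before the most upstream start are shown for 3 claudins whose groups did not overlap (Cldn1, Cldn7 and Cldn10) and for 3 genes with repeated CACCTG (Epcam, Lsr and Ap1m2). They read 5′ to 3′ on the strand of the gene, and capitals mark CACCTG or its complement CAGGTG and AACCNNTT or its complement AANNGGTT. The positions are chr16:26371840-26372089 (minus) for Cldn1, chr11:69964529-69964778 (plus) for Cldn7, chr14:118787621-118787870 (plus) for Cldn10, chr17:87635729-87635978 (plus) for Epcam, chr7:30973470-30973719 (minus) for Lsr and chr9:21312334-21312583 (minus) for Ap1m2.
Cldn1: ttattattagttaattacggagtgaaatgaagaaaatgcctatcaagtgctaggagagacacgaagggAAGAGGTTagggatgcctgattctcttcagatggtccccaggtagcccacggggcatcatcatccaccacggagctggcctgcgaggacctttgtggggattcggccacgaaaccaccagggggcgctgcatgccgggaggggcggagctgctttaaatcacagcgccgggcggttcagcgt
Cldn7: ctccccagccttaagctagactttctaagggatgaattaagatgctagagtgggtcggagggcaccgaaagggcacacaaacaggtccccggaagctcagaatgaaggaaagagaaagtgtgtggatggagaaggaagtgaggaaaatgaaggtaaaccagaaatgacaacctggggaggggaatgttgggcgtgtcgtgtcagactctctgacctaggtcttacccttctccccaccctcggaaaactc
Cldn10: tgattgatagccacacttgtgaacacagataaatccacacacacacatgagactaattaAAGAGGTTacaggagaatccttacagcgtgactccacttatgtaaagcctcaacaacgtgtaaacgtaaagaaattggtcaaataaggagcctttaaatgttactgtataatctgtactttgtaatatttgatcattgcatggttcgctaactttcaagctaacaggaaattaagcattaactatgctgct
Epcam: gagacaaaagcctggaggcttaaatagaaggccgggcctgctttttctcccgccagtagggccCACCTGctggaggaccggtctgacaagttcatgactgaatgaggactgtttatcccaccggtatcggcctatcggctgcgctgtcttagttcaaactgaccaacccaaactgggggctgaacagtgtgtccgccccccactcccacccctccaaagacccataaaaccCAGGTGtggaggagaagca
Lsr: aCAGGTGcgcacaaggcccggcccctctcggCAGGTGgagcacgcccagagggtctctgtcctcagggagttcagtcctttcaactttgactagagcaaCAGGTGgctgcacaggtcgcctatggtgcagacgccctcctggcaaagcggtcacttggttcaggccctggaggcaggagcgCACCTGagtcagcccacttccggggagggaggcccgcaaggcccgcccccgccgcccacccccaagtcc
Ap1m2: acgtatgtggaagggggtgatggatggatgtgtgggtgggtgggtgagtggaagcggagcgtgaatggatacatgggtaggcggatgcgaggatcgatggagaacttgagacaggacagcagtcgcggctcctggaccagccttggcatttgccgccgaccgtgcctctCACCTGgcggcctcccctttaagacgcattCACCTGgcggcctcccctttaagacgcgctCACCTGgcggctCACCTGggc
Cldn1 and Cldn10 each hold 1 Grainyhead-type match and no CACCTG, Epcam holds 2 CACCTG, and Lsr and Ap1m2 hold 4 each. The CACCTG matches of Cldn7 lie in the window of its second listed start, which is not printed.

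Of the 6 members at an unadjusted limma p under 0.05, 5 were tight junction genes, 3 with higher and 2 with lower values in deleted uteri. They made up 31.2% of the 16 tight junction genes, beside 4.98% of all genes tested. Over all 16 tight junction genes the median log2 change was -0.01, with 8 positive and 8 negative estimates. Claudins 1 and 7 and tricellulin were on the higher side, and claudins 10 and 23 on the lower side.

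Cldn1 encodes a barrier-forming claudin and lies at chr16:26356642-26371841 on the minus strand (GRCm38, the build called mm10). Its values were 21.1, 16.5 and 17.0 FPKM in controls and 34.1, 24.0 and 47.6 in deleted uteri. All 3 deleted libraries were above every control, and d/d 3 was highest. The means were 18.2 ± 2.54 and 35.2 ± 11.9 FPKM (SD, n = 3), or 194% of control. The log2 change was 0.87 ± 0.24 (standard error; limma, adjusted p = 0.922). It was 0.63 without d/d 3 and 1.11 without d/d 2.

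Cldn7 encodes a claudin that binds Epcam and also occurs along the lateral membrane (chr11:69964779-69967885, plus strand). It was at 46.7, 51.3 and 43.9 FPKM in controls and 74.9, 67.8 and 58.3 in deleted uteri, again without overlap. Its log2 change was 0.49 ± 0.13 (standard error; limma, adjusted p = 0.922). Marveld2, which encodes tricellulin, the protein of the corners where cells meet (chr13:100595957-100616971, minus strand), was at 4.35, 5.32 and 3.68 FPKM in controls and 7.85, 6.20 and 6.12 in deleted uteri. The deleted libraries all lay above the controls, with d/d 1 the highest. The log2 change was 0.51 ± 0.16 (standard error; limma, adjusted p = 0.922). Under array quality weights the adjusted limma p was 0.0386 for Cldn1 and for Cldn7 and 0.046 for Marveld2. Over all settings, the adjusted p reached 1 for each of these genes.

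Cldn10 encodes a claudin that forms ion-selective paracellular channels (chr14:118787908-118875489, plus strand). Its control values were 75.1, 63.5 and 78.0 FPKM and its values in deleted uteri 55.8, 41.0 and 62.5. The gap between the groups was small, since d/d 3 lay just under f/f 2. The unadjusted limma p of Cldn10 was 0.0327 with all libraries. It was 0.0914 without f/f 1, 0.101 without f/f 3, 0.0514 without d/d 1 and 0.0543 without d/d 2. The log2 change was -0.45 ± 0.17 (standard error; limma, adjusted p = 0.922), and -0.28 without d/d 2. Cldn23, a claudin of differentiated epithelia (chr8:35824712-35826559, minus strand), was at 19.9, 15.6 and 16.8 FPKM in controls and 12.97, 7.16 and 12.99 in deleted uteri. Library d/d 2 was the lowest and the other deleted libraries also lay under every control. The unadjusted limma p of Cldn23 was 0.0208 with all libraries and 0.0704 without f/f 1. The log2 change was -0.65 ± 0.22 (standard error; limma, adjusted p = 0.922), and -0.39 without d/d 2.

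**Figure D3:**
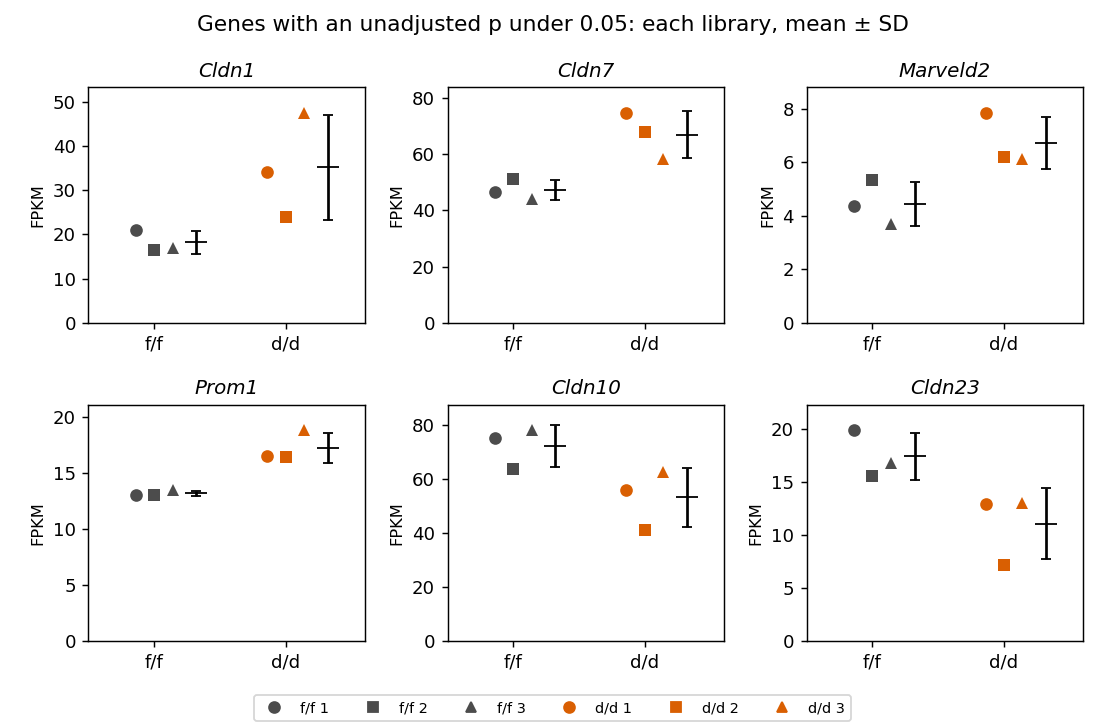
FPKM of the 6 genes with an unadjusted limma p under 0.05, 1 symbol per library (grey controls, orange deleted uteri), with the mean ± SD of each group in black and axes from 0. Cldn1, Cldn7, Marveld2 and Prom1 have every deleted library above every control, and Cldn10 and Cldn23 have every deleted library below.

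The make-up of the claudin transcripts was described by the share of each gene in the summed FPKM of the 8 claudins of the set. This comparison was chosen after the values were seen and was not tested. Other claudins were left out, among them Cldn5, listed as an endothelial marker, at a control mean of 80.7 FPKM. Cldn1 made up 4.73%, 4.14% and 4.15% in controls and 8.35%, 8.04% and 8.48% in deleted uteri. Its share thus differed between the groups with little spread within either, whereas its level varied widely among deleted uteri. Cldn10 made up 15.9% to 19.1% in controls and 11.1% to 13.8% in deleted uteri, and Cldn23 3.91% to 4.46% and 2.32% to 3.18%. Cldn3 was the most abundant claudin throughout, with 50.1% to 52.0% in controls and 43.8%, 41.6% and 56.6% in d/d 1 to d/d 3. The share of Cldn7 was 10.5% to 12.9% in controls, 18.3% in d/d 1 and 22.8% in d/d 2, but 10.4% in d/d 3, so the groups overlapped, as did the shares of Cldn3, Cldn4, Cldn8 and Cldn12. Summed claudin values were 398 to 446 FPKM in controls and 408, 298 and 561 in the deleted uteri.

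**Figure D4:**
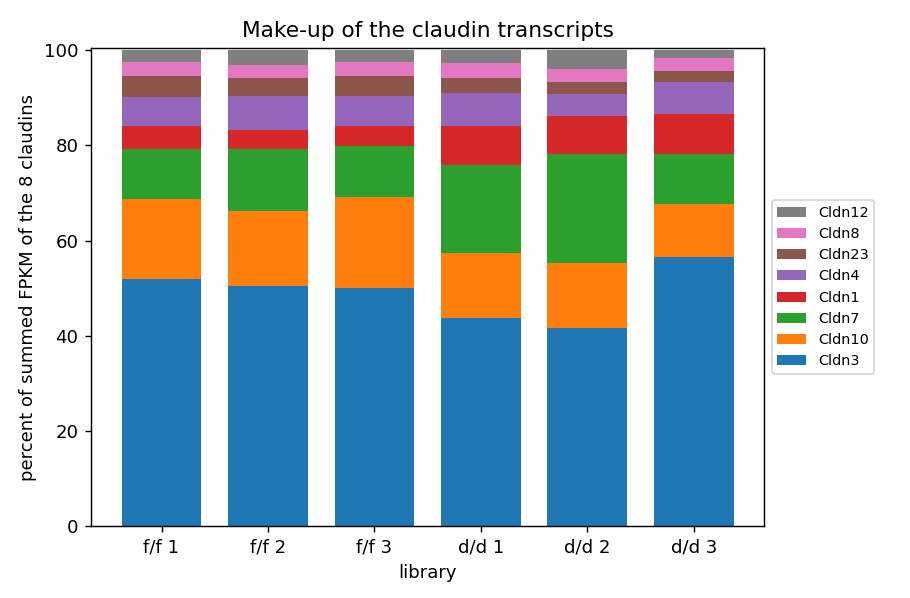
Share of each of the 8 claudin genes of the set in their summed FPKM, in percent, 1 bar per library (f/f controls, d/d deleted uteri). Cldn3 is the largest part of every bar, and the Cldn1 part is 4.14% to 4.73% in controls and 8.04% to 8.48% in deleted uteri.

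The remaining claudins of the set had overlapping groups. Cldn3, at 232, 201 and 205 FPKM in controls, was at 179, 124 and 317 in deleted uteri, both below and above the control range. Cldn4, a barrier claudin that lies 39.3 kb from Cldn3 on chromosome 5, was likewise lowest in d/d 2 and highest in d/d 3, with 27.3, 27.9 and 25.8 FPKM in controls and 27.9, 13.8 and 37.4 in deleted uteri. Cldn8, of tight barriers, ranged from 8.39 to 16 FPKM over all libraries, and Cldn12, an atypical claudin without the usual carboxy-terminal binding motif, from 8.61 to 11.9.

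The other tight junction membrane proteins and plaque proteins also overlapped between groups. Ocln, the gene of occludin and a neighbour of Marveld2 at 43.2 kb on chromosome 13, was at 8.05 to 10.9 FPKM in controls and 8.86 to 12.5 in deleted uteri. Marveld3, another protein of the occludin family, was at 6.01 to 6.30 and 5.28 to 6.97 FPKM. F11r, which encodes the junctional adhesion molecule JAM-A, was at 35.04 to 40.94 and 33.3 to 40.2 FPKM, and Lsr, which recruits tricellulin to cell corners, at 12.9 to 15.4 and 14.2 to 18.2. Tjp1, the gene of a zonula occludens scaffold that many cell types use, varied little among controls (50.9 to 52.2 FPKM) and widely among deleted uteri (42.8, 37.7 and 58.7). The epithelial scaffold gene Tjp3 ranged from 10.8 to 13.4 and 11.4 to 14.7 FPKM, and Cgn, the gene of cingulin, from 7.37 to 8.06 and 6.88 to 8.66.

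Of the 6 desmosome genes tested, 0 had an unadjusted limma p under 0.05, beside 4.98% of all genes tested, and 1 (16.7%) did not overlap between the groups, beside 10.7%. So few genes say little against those shares. Their median log2 change was -0.02, with 3 positive and 3 negative estimates. The member with the smallest p was Pkp3, a plakophilin of the desmosomal plaque, at 4.998, 5.379 and 5.5 FPKM in controls and 6.251, 5.599 and 6.522 in deleted uteri. Its groups did not overlap, by a narrow gap between f/f 3 and d/d 2, and the log2 change was 0.18 ± 0.12 (standard error; limma, adjusted p = 0.924). Jup, the gene of plakoglobin, which adherens junctions share, was the most abundant at 39.7 to 47.1 FPKM in controls and 34.1 to 45.3 in deleted uteri. Dsp, encoding desmoplakin, the link to keratin filaments, was at 14.9 to 16.1 FPKM in controls and 12.97, 11.46 and 18.85 in deleted uteri. The desmosomal cadherin genes Dsg2 (4.75 to 6.20 and 5.05 to 6.40 FPKM) and Dsc2 (1.92 to 3.22 and 1.78 to 2.98) and the plakophilin gene Pkp2 (3.80 to 5.11 and 3.42 to 5.98) overlapped almost fully. Pkp1 was at 0.191 to 0.206 FPKM in controls and 0.0613 to 0.252 in deleted uteri.

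Among the regulators, 4 of 5 tested (80.0%) had a positive estimate, beside 56.6% of all genes tested. An unadjusted limma p under 0.05 was found for 0 of them, beside 4.98%, and the median log2 change was 0.06. So few genes say little against those shares. Esrp1, which encodes the main epithelial splicing regulator, had 12.1, 10.8 and 11.6 FPKM in controls and 12.98, 14.38 and 14.02 in deleted uteri. All deleted libraries were above all controls, by a log2 change of 0.24 ± 0.11 (standard error; limma, adjusted p = 0.922). Its paralogue Esrp2 was lower, at 3.44 to 3.83 FPKM in controls and 2.846 to 4.599 in deleted uteri, and overlapped. Grhl2, the Grainyhead-like factor that activates junction genes in many epithelia, was at 6.39 to 8.26 FPKM in controls and 6.02, 6.31 and 9.70 in deleted uteri, with a log2 change of 0.01. Grhl1, below the filter, was at 0.479, 0.616 and 0.530 FPKM in controls and 1.09, 0.938 and 0.700 in deleted uteri. Its groups did not overlap, and without the filter the log2 change was 0.31 (limma adjusted p = 0.873).

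The ETS-family factors of epithelia were ordered differently over the libraries. Ehf was at 40.9, 27.4 and 26.9 FPKM in controls and 23.6, 16.6 and 34.4 in deleted uteri, with the highest value in a control and the lowest in d/d 2. Elf3 was at 20.2 to 23.4 FPKM in controls and 19.95, 29.27 and 24.02 in deleted uteri, with the highest value in d/d 2.

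The adhesion molecules were the one group whose spread was no larger in deleted uteri for any member. Epcam, a surface glycoprotein used as a general epithelial marker, was at 47.0, 50.5 and 56.9 FPKM in controls and 62.8, 64.2 and 58.0 in deleted uteri. The groups did not overlap, the nearest libraries being f/f 3 and d/d 3, and the log2 change was 0.26 ± 0.11 (standard error; limma, adjusted p = 0.922). Cdh1, the gene of E-cadherin, was at 38.6, 43.6 and 51.8 FPKM in controls and 46.4, 44.0 and 49.9 in deleted uteri, within the control range. Cdh3, the gene of P-cadherin, which lies 46.1 kb from Cdh1 on chromosome 8, was at 3.19 to 4.75 FPKM in controls and 2.62 to 3.84 in deleted uteri.

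The membrane proteases and inhibitors overlapped between the groups. St14, the gene of matriptase, had the smallest p of the 4, with 28.77, 34.99 and 37.25 FPKM in controls and 41.3, 46.5 and 35.6 in deleted uteri; the log2 change was 0.28 ± 0.15 (standard error; limma, adjusted p = 0.922). Without f/f 1 it was 0.18. Prss8, the gene of prostasin, which works with matriptase, was at 15.3 to 19.1 FPKM in controls and 15.7, 13.2 and 26.3 in deleted uteri. The inhibitor gene Spint1 was at 13.4 to 17.4 FPKM in controls and 20.1, 11.1 and 18.7 in deleted uteri, and Spint2 at 201 to 212 and 207, 146 and 251. In both inhibitor genes d/d 2 held the lowest of all 6 values.

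Rab25, a small GTPase of apical recycling, was at 30.87 to 37.95 FPKM in controls and 29.1 to 37.1 in deleted uteri. Ap1m2, the epithelial subunit of the clathrin adaptor that sorts proteins to the basolateral side, was at 12.95 to 13.73 and 12.75 to 16 FPKM. Its log2 change of 0.12 ± 0.12 (standard error; limma, adjusted p = 0.947) became -0.03 with array quality weights, 0.05 without d/d 2 and 0.20 without d/d 1. Met, the receptor for hepatocyte growth factor, was at 7.80 to 10.8 FPKM in controls and 7.502 to 9.436 in deleted uteri.

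Prom1, the gene of prominin, a glycoprotein of apical membrane protrusions (chr5:43993620-44102032, minus strand), was the only member outside the tight junction group at an unadjusted limma p under 0.05. It was at 13.03, 13.06 and 13.44 FPKM in controls and 16.5, 16.4 and 18.8 in deleted uteri. Controls were nearly identical and every deleted library lay above them. The means were 13.2 ± 0.228 and 17.3 ± 1.35 FPKM (SD, n = 3), and the log2 change was 0.36 ± 0.10 (standard error; limma, adjusted p = 0.922). An annotated antisense gene overlaps its exons, and 11 members in all share exon bases with another annotated gene, among them Cldn3, Esrp1, Elf3 and Prss8. Whether reads were assigned by strand is not given in the sources used here, so these values may include reads of the overlapping gene.

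The deleted libraries differed from each other more than the controls did. The standard deviation among deleted uteri was 2.00 times that among controls (median over the 38 members), and 1.73 times over all genes tested. For the tight junction genes it was 2.51 times. It was larger in deleted uteri for 15 of 16 tight junction genes (93.8%), beside 76.3% of all members and 73.9% of all genes tested. Library d/d 2 was the lowest of all 6 for 16 members (42.1%), beside 25.7% of all genes tested, and d/d 3 was the highest for 18 members (47.4%), beside 22.1%. The 44 tested related genes outside the set had similar shares, 45.5% lowest in d/d 2 and 43.2% highest in d/d 3. Relative to the control mean, the median over members was -0.02, -0.10 and 0.22 on the log2 scale in d/d 1, d/d 2 and d/d 3, and within -0.02 to 0.02 in controls. Cldn4, Cldn3, Ehf, Cldn1, Prss8 and Cldn8 had the widest gap between d/d 2 and d/d 3. The pattern was not shared by all: 11 of 38 members (28.9%, beside 49.9% of all genes tested) were higher in d/d 2 than in d/d 3, namely Cldn7, Cldn12, Marveld2, Lsr, Dsc2, Esrp1, Elf3, Epcam, St14, Ap1m2 and Met. Stromal markers were divided, 4 of 7 being highest and 3 lowest of all libraries in d/d 2: the median position of the 7 listed was -0.41, 0.20 and -0.43 in d/d 1, d/d 2 and d/d 3, and their summed values were 3546 to 4103 FPKM in controls and 2961, 4048 and 2888 in deleted uteri. All 7 stromal and all 7 endothelial markers had negative estimates, none with an adjusted limma p under 0.05. Over all genes tested, 5486 of 12640 estimates were negative. The part of stroma and vessels in the pattern was not tested.

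**Figure D5:**
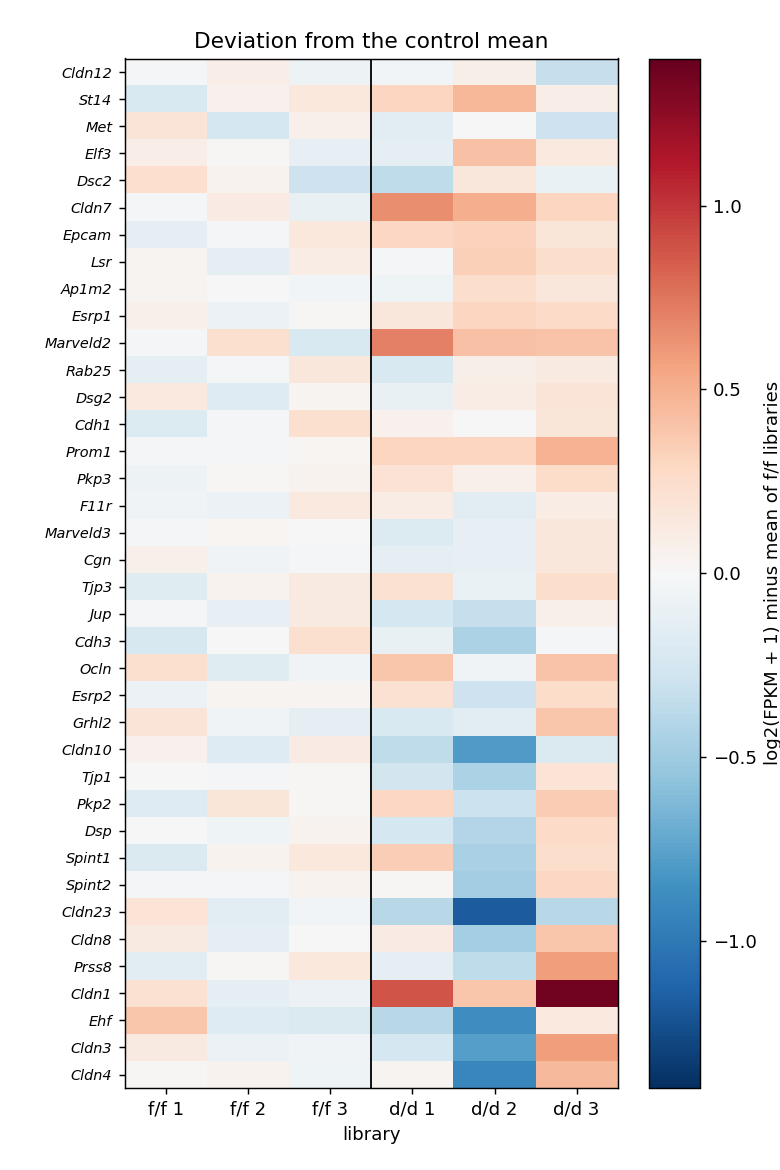
Deviation of each of the 38 tested genes from its control mean, in log2(FPKM + 1), for each library (columns); red is above and blue below, and rows run from the lowest to the highest difference between d/d 3 and d/d 2. Most rows near the bottom are blue in d/d 2 and red in d/d 3; Cldn1 is red and Cldn10 and Cldn23 are blue in all 3 deleted uteri.

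The mean keratin level moved with part of this pattern, but the 3 keratins did not move alike. Krt8 was highest of all libraries in d/d 2 (175.9, 203.0 and 177.2 FPKM in d/d 1 to d/d 3). Krt18 (184.4, 116.0 and 204.3) and Krt19 (169.4, 155.7 and 203.5) were lowest there. The mean log2 value of Krt8, Krt18 and Krt19, minus its mean over controls, was -0.11, -0.01 and 0.12 in controls and 0.13, -0.07 and 0.27 in deleted uteri, highest in d/d 3. After subtracting it, the member median in d/d 3 was -0.05 in place of 0.22, and those in d/d 1 and d/d 2 were -0.15 and -0.04. On this scale the log2 changes of Cldn1, Cldn10 and Cldn23 were 0.76, -0.56 and -0.76, each with an unadjusted limma p under 0.05; these were 3 of 38 members (7.89%), beside 4.52% of all genes tested. Those of Cldn7 (0.38), Marveld2 (0.40), Prom1 (0.25), Esrp1 (0.13), Epcam (0.15), Pkp3 (0.07), St14 (0.17) and Ap1m2 (0.01) had unadjusted limma p above 0.05. The share of epithelial cells in each uterus was not measured, and its part in these values was not tested.

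Other genes of the junction and epithelial programme, 52 listed by their known roles, of which 44 were tested, were tested in the same fit. None passed the adjusted threshold, 3 (6.82%) had an unadjusted limma p under 0.05 beside 4.98% of all genes, and the median log2 change was 0.01. In 5 (11.4%) the groups did not overlap, close to the 10.7% of all genes tested. Of these, Crb3, Twist1 and Myo5b were higher and Zeb2 and Cldn11 lower in deleted uteri. By role, the 15 tight junction genes tested had a median log2 change of -0.15 with 11 negative estimates, and 10 of them were lowest in d/d 2. The 4 desmosome genes had a median of 0.10 with 3 positive, and the 9 regulators 0.11 with 6 positive. The 9 adherens junction genes had 0.01 with 5 positive, and the 7 surface and protease genes 0.21 with 6 positive. Over all genes tested, 56.6% of estimates were positive. Crb3, a polarity protein of the apical membrane, was at 10.7, 8.34 and 7.57 FPKM in controls and 10.8, 11.8 and 15.0 in deleted uteri (log2 change 0.45; adjusted p = 0.922, limma). Of the repressors of the epithelial programme, Zeb2 was at 16.6, 14.4 and 14.8 FPKM in controls and 12.3, 10.4 and 12.2 in deleted uteri, lower without overlap (log2 change -0.37; adjusted p = 0.922, limma). Twist1 was at 12.6, 15.5 and 14.6 FPKM in controls and 15.8, 19.9 and 20.6 in deleted uteri (log2 change 0.37; adjusted p = 0.922, limma), while Zeb1, Snai1 and Snai2 overlapped between the groups. Zeb2, Twist1, Snai1 and Snai2 are also expressed by stroma, vessels and leukocytes. Of the 8 epithelial markers outside the set, Wnt7a, a ligand of the luminal epithelium, was at 9.65, 13.4 and 13.8 FPKM in controls and 21.1, 24.7 and 14.8 in deleted uteri, and Foxa2, a factor of the glands, at 2.72, 2.18 and 2.06 and 1.14, 1.25 and 1.75. Both differed without overlap, in opposite directions, with log2 changes of 0.66 and -0.49 (limma adjusted p = 0.922 for each). These 2 were 25.0% of the 8 markers, beside 10.7% of all genes tested, and so few genes say little. The other 6 (Krt7, Krt8, Krt18, Krt19, Muc1 and Msx1) overlapped between the groups, with log2 changes from -0.08 to 0.24.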

How the data were processed

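The authors deposited 1 table per library with an Ensembl identifier, a symbol and 1 value per gene. The deposited unit was taken as FPKM from the values and from the submitters' processing notes, which name HISAT2 2.2.1, Cufflinks 2.2.1 and mm10 without a role. The annotation and the strand setting are not given in the sources used here. Groups and replicate numbers came from the sample titles.

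The tables were joined with Python 3.11.15 and pandas 2.3.3. Values were analysed as log2(FPKM + 1), so a fold change of a low gene is understated. Genes with at least 1 FPKM in at least 3 libraries were tested (12640 of 20637). The 3 deleted libraries were compared with the 3 controls in limma 3.58.1 (R 4.3.3; eBayes with trend), two-sided, with Benjamini-Hochberg adjustment over all genes tested and a threshold of 0.05. The fit was tested on simulated data. Coordinates are from GENCODE release M21, which matched 20558 identifiers (99.62%). Markers of the oviduct included 1 symbol absent from the tables.

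The members and lists were chosen with earlier results of these data known. Full statistics are given for members with an unadjusted p under 0.05, those whose groups do not overlap, and the member with the smallest p in each role group. Alternatives were quantile normalization, median centring, an offset by 3 keratins, other filters, a pseudocount of 0.1, no trend, array quality weights, a replicate block and leaving out each library. The labels do not say whether equal replicate numbers pair libraries, and the fit as reported did not pair them.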

Additional observations from a re-analysis of the deposited data

How the results depend on the processing

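No gene was called with the other scalings, filters, pseudocount or without the trend. Array quality weights called 316 genes, among them 3 members, and leaving out 1 library at a time called between 0 and 12 genes, the 12 without d/d 2, and 0 members. Members at an unadjusted limma p under 0.05, 6 as reported, numbered 3 after the keratin offset (7.89%, beside 4.52% of all genes tested), 14 with array quality weights (36.8%, beside 29.5% of all genes tested), and 4 to 13 when 1 library was left out, the 13 without d/d 3. Members without overlap, 9 as reported, numbered 7 with quantile normalization and 7 with median centring (18.4%, beside 10.8% of all genes tested for each), and 6 after the keratin offset (15.8%, beside 10.9%). They numbered 10 to 18 when 1 library was left out. Without f/f 1 or f/f 2 they were 10 (26.3%, beside 17.0% and 20.5%), without f/f 3 they were 11 (28.9%, beside 15.7%), without d/d 1 they were 12 (31.6%, beside 15.0%), without d/d 2 they were 14 (36.8%, beside 31.8% of all genes tested) and without d/d 3 they were 18 (47.4%, beside 30.2%). Over 15 settings and 12 named genes, 1 estimate reversed (Ap1m2, -0.027 with array quality weights) and 4 genes (Cldn1, Cldn7, Marveld2 and Nat10) passed the threshold under array quality weights. Since no gene passed it as reported, staying on the same side says little about stability, and sizes moved. The keratin offset lowered the log2 changes of Pkp3 to 0.07, Epcam to 0.15, Esrp1 to 0.13, St14 to 0.17 and Ap1m2 to 0.01, each by over 1.5 times. The median log2 change of the members lay between -0.08 (keratin offset) and 0.12 (without d/d 2), so its sign is not fixed. The cause of these differences was not tested.

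With the replicate block, 0 genes and 0 members were called, and 6 members and 726 genes had an unadjusted limma p under 0.05. Deviations of same-numbered libraries correlated at -0.34, -0.03 and 0.10. The highest values were 0.27, for f/f 1 with d/d 2 and for f/f 3 with d/d 1. Deviations were centred within each group of 3, which binds these values to each other. They cannot show whether same-numbered libraries were paired. The alternative that needs counts was not run, since the values were taken as FPKM. Absolute depth is unknown, so no counting error can be given.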

Other observations

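Ratios of 8 gene pairs, computed within each library and chosen after the values were seen, are given without a test; 2 of them did not overlap between the groups and 6 did. The ratio of Cldn1 to Cldn3 was 0.0911, 0.0822 and 0.0828 in controls and 0.191, 0.193 and 0.150 in deleted uteri, without overlap, although Cldn3 itself varied from 124 to 317 FPKM among deleted uteri. The ratio of Cdh1 to Cdh3 was 12.1, 11.2 and 10.9 in controls and 13, 16.8 and 13 in deleted uteri. The ratio of St14 to its inhibitor gene Spint1 was 2.14 to 2.16 in controls, 2.05 in d/d 1, 1.91 in d/d 3 and 4.17 in d/d 2. The ratio of Esrp1 to Esrp2 was 2.83 to 3.52 in controls, 2.93 and 3.05 in d/d 1 and d/d 3, and 5.05 in d/d 2. The ratio of Cldn7 to Cldn3 was 0.202 to 0.255 in controls and 0.419, 0.547 and 0.184 in deleted uteri. Cldn7 to Epcam gave 0.772 to 1.02 and 1.0 to 1.19, Pkp3 to Pkp2 gave 1.05 to 1.31 and 1.09 to 1.64, and Marveld2 to Ocln gave 0.399 to 0.661 and 0.489 to 0.70.

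Of 5 mesothelial markers, 4 were tested, with 3 negative estimates and 1 positive (Wt1, 0.05); of 7 endothelial markers, 2 were lower without overlap (Kdr and Tek) and 5 overlapped. The mesothelial genes Msln (4.08, 5.42 and 6.24 FPKM in controls; 3.57, 3.67 and 2.83 in deleted uteri) and Lrrn4 (2.56, 3.70 and 3.17; 1.38, 2.24 and 1.10) were lower without overlap, as was the endothelial receptor gene Kdr (27.4, 27.4 and 28.1; 18.5, 19.8 and 20.6). Upk3b, Wt1 and Muc16 overlapped between the groups. None of Msln, Lrrn4 and Kdr passed the adjusted threshold in limma (adjusted p = 0.922 for Msln and Lrrn4 and 0.806 for Kdr). Mesothelium also makes keratins, so the keratin offset above is not specific to the uterine epithelium.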
